A study of Mus musculus with 12 samples.

Results

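The genes described here serve the sensing of chemotactic cues by mouse macrophages, namely Gpr183, Ch25h, Ccr1, Ccr2, Cx3cr1, Cxcr4, P2ry6 and P2ry12. Gpr183 was picked because its mRNA dropped strongly with a bromodomain inhibitor, so its values with the inhibitor are given as a description with no test. The other 7 were taken by name, as the enzyme that makes the precursor of the GPR183 ligand and as other chemotactic receptors of mononuclear phagocytes. These 8 were among 24421 gene symbols in the count table, and all 8 passed the filter on low counts that left 11468 genes for testing. The cells were bone marrow-derived macrophages (BMDMs) of wild-type C57BL/6 mice, grown with 100 ng/mL M-CSF over 5 days, the medium being changed on day 3. Exposure lasted 4 hours and combined a drug arm, I-BET151 (iBET, a small molecule that blocks the acetyl-lysine pockets of BET proteins) at 5.0 µM or 5% DMSO, with a stimulus, ovalbumin alone (Ova) or ovalbumin bound by rabbit IgG in insoluble immune complexes (IC). The labels give drug and stimulus as simultaneous. The study's methods and results both place the drug before the stimulus, which would make exposure to the drug longer than 4 hours. No DMSO content is given in the labels for the iBET arm, so whether the vehicle was matched is not known. The 5% DMSO is taken from the labels. The study names a DMSO solvent control without a percentage for these cultures, and states 5% only for the solution injected into mice. Each of mice A, B and C is represented by 1 library in every one of the 4 groups, called here DMSO Ova, DMSO IC, iBET Ova and iBET IC.

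GPR183 (EBI2) is a Gi-coupled receptor for dihydroxylated oxysterols, above all 7alpha,25-dihydroxycholesterol, and it places B cells, dendritic cells and macrophages within lymphoid tissue. Cholesterol 25-hydroxylase, encoded by Ch25h, makes 25-hydroxycholesterol, which Cyp7b1 converts to the GPR183 ligand and Hsd3b7 inactivates. CCR1 and CCR2 bind inflammatory CC chemokines, CX3CR1 binds fractalkine and CXCR4 binds CXCL12. P2RY6 senses UDP and P2RY12 senses ADP, and P2RY12 guides microglia toward released nucleotides.

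The libraries held 7549849 to 17387639 counts. The ribosomal RNA gene Rn45s took 1.41% to 7.83% of the counts in 11 libraries and 77.4% in mouse A's DMSO Ova library, which had few counts outside it. The members' values that use this library are also given without it. All 8 macrophage markers (among them Adgre1, Csf1r and Cd68) were detected in every group, with a summed level of 6325 to 8484 CPM (counts scaled to a common library size with edgeR's TMM factors). Erythroid markers were at 0 in all libraries, the T cell sum was at most 0.291 CPM and the monocyte sum at most 5.91 CPM. Neutrophil markers summed to 7.70 to 41.2 CPM, dendritic cell markers to 7.24 to 23.2 CPM and microglia markers to 311 to 425 CPM. Some markers moved with iBET. Of the 8 macrophage markers 1 rose in Ova and 2 in IC, beside 17.1% and 19% of all genes tested, and none fell. Among them was Mertk, a receptor for apoptotic cells (log2 fold change 0.77, adjusted p = 0.0354, and 1.25, adjusted p = 0.00244). Of 4 microglia markers 1 was tested, and it rose by 0.27 in Ova and 0.34 in IC. Of the 2 dendritic cell markers tested, Zbtb46 rose in Ova at a very low level, from 0.197 to 0.889 CPM (adjusted p = 0.00816). It did not pass in IC (adjusted p = 0.0864), and of 2 monocyte and 4 neutrophil markers tested none passed. Their part in the receptor results was not tested.

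Gpr183 (ENSMUSG00000051212.8, GRCm38 chr14:121952551-121965195, minus strand, 3 exons) was measured at 69.3, 69.5 and 51.7 CPM in the DMSO Ova libraries of mice A, B and C. In iBET Ova the same mice gave 5.09, 5.96 and 5.42 CPM. Every iBET library thus lay far below every DMSO library. With IC the DMSO libraries held 48.3, 37.6 and 33.4 CPM and the iBET libraries 2.94, 4.46 and 2.52 CPM. The groups were again separate, and the iBET values rested on 21 to 66 counts per library. The fitted log2 fold change for iBET against DMSO was -3.53 (SE 0.22) in Ova and -3.59 (SE 0.22) in IC, a level 11.5-fold lower and 12.0-fold lower. These are the contrasts on which Gpr183 was picked, so its rank follows from that choice and is given only as a description. By size of the fall it stood at rank 5 of 1315 genes in Ova and rank 4 of 1458 in IC. The genes ranked were those called lower with a mean of at least 50 counts, and the presence of Gpr183 among them is not a test of it. Over all settings tried the log2 fold change ranged from -3.66 to -3.44 in Ova and from -3.88 to -3.33 in IC, and it was -3.52 in Ova without the mouse A library rich in Rn45s. In these bulk libraries fewer cells of a type and less RNA per cell cannot be told apart.

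Gpr183 lies within Ubac2, on the opposite strand and with 0 shared exonic bases, and whether reads were counted by strand is not given in the sources used here. Ubac2 measured 15.9 ± 2.49 CPM (SD, n = 3) in DMSO Ova and 12.9 ± 4.18 CPM in iBET Ova. Its log2 fold change was -0.27 (adjusted p = 0.393) in Ova and 0.04 (adjusted p = 0.912) in IC, so the host gene did not pass the test in the contrasts where Gpr183 was low.

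**Figure D1:**
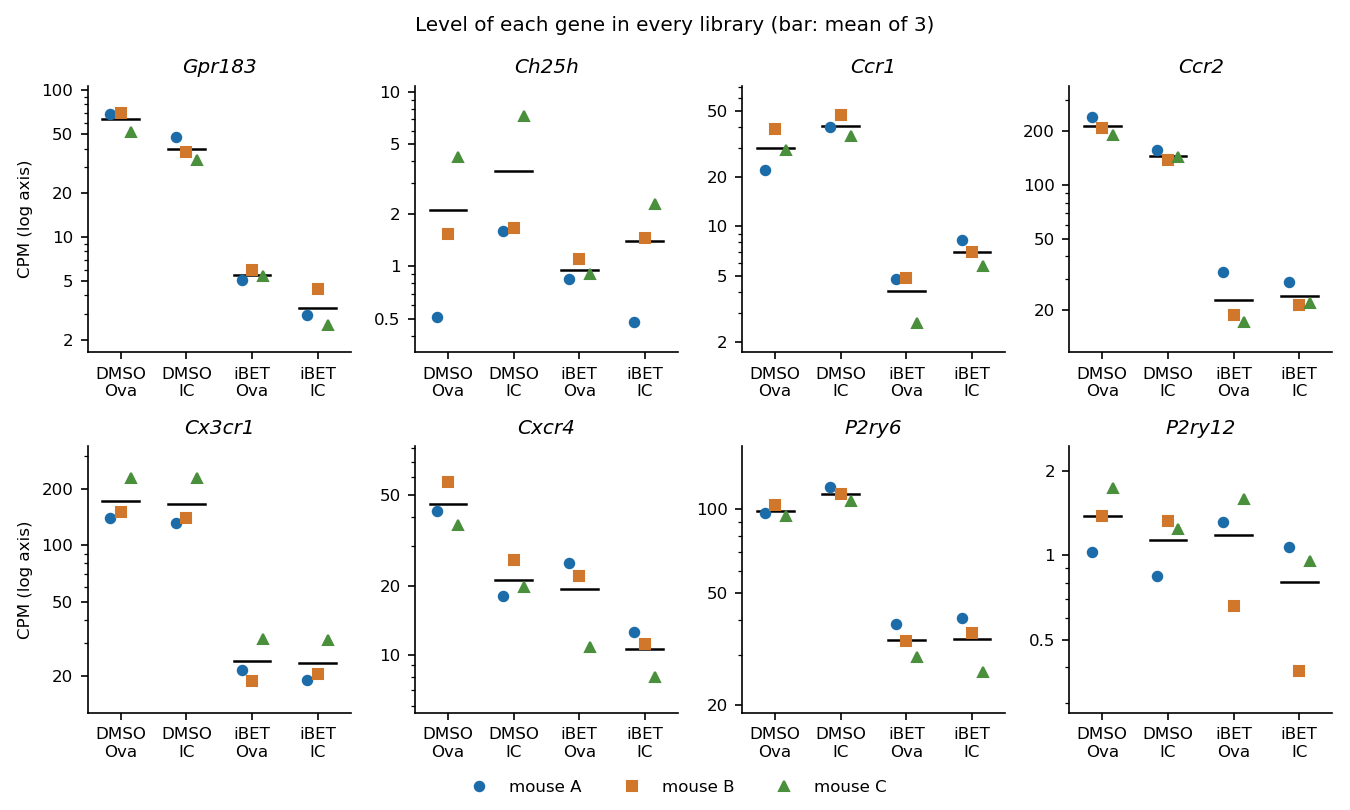
Level of each of the 8 genes in CPM on a log axis, 1 point per library with the mouse given by colour and shape and the group mean of 3 as a bar. For Gpr183, Ccr1, Ccr2, Cx3cr1, Cxcr4 and P2ry6 the iBET libraries sit below the DMSO libraries with the same stimulus, while those of Ch25h and P2ry12 overlap, both at under 8 CPM throughout (highest 7.24 CPM, Ch25h in mouse C's DMSO IC library).

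Ch25h (ENSMUSG00000050370.5, chr19:34473778-34475164, minus strand, 1 exon) was scarce and uneven between mice. In DMSO Ova it measured 0.514, 1.53 and 4.23 CPM in mice A, B and C, on 1 to 51 counts. In DMSO IC it measured 1.60, 1.65 and 7.24 CPM, so mouse C was highest with both stimuli. The iBET libraries held 0.849, 1.10 and 0.902 CPM in Ova and 0.480, 1.45 and 2.28 CPM in IC, and overlapped the DMSO libraries each time. The log2 fold change for iBET was -1.40 (SE 0.81, adjusted p = 0.214) in Ova, or -1.64 (adjusted p = 0.171) without mouse A's DMSO Ova library, and -1.45 (SE 0.73, adjusted p = 0.148) in IC. With the mouse as a block, Ch25h passed the test in IC (-1.27, adjusted p = 0.0261), as it did with 1 surrogate variable (-1.82, adjusted p = 0.0099). Ch25h shares 159 exonic bases with Gm26902 on the opposite strand, so reads could not be assigned between them without strand.

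The other genes of oxysterol handling are few in these cells. Of 10 listed, 4 were abundant enough to test and none passed in either iBET contrast by edgeR (0 at an unadjusted p under 0.05 in Ova and 1 in IC). Their median log2 fold change was -0.09 in Ova and -0.10 in IC, beside 0.02 and -0.0037 for all genes tested. Hsd3b7, which inactivates the GPR183 ligand, measured 21.0 ± 8.92 CPM in DMSO Ova and 31.4 ± 2.14 CPM in iBET Ova (log2 fold change 0.49, adjusted p = 0.140), and its change in IC was 0.64 (adjusted p = 0.0508). A block for the mouse gave 1 of the 4 genes called higher and 1 lower in IC. Cyp7b1, which makes the ligand from 25-hydroxycholesterol, had 0 counts in all 12 libraries.

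Among the chemokine receptors, Ccr2 (ENSMUSG00000049103.14, chr9:124101950-124113557, plus strand), the receptor that draws monocytes out of bone marrow, measured 242, 210 and 192 CPM in DMSO Ova and 32.9, 18.7 and 17.3 CPM in iBET Ova in mice A, B and C. With IC it measured 158, 138 and 143 CPM in DMSO and 28.7, 21.4 and 22.1 CPM in iBET. The lowest DMSO library was thus above 4 times the highest iBET library (137.9 against 32.9 CPM). Ccr2 fell by 3.21 on the log2 scale in Ova (SE 0.23, adjusted p = 2.19e-06) and was 6.06-fold lower in IC (log2 SE 0.22, adjusted p = 5.69e-06). Ccr2 lies beside related CC receptor genes, and reads shared with them could have been split by the counting.

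Ccr1 (ENSMUSG00000025804.5, chr9:123962124-123968692, minus strand), a receptor for CCL3 and related chemokines, measured 22.1, 39.0 and 29.1 CPM in DMSO Ova and 4.78, 4.85 and 2.59 CPM in iBET Ova. With IC it measured 40.0, 47.2 and 35.4 CPM in DMSO and 8.27, 6.98 and 5.75 CPM in iBET. No iBET library reached a DMSO library with either stimulus. Ccr1 fell by 2.90 on the log2 scale in Ova (SE 0.26, adjusted p = 8.13e-06) and by 2.52 in IC (SE 0.24, adjusted p = 1.17e-05). The neighbouring CC receptor genes leave the same doubt about shared reads as for Ccr2.

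Cx3cr1 (ENSMUSG00000052336.7, chr9:119901616-120069879, minus strand), the fractalkine receptor, differed by mouse. It measured 139.7, 151 and 227 CPM in DMSO Ova and 21.5, 18.9 and 31.8 CPM in iBET Ova in mice A, B and C. With IC it measured 132, 140.0 and 229 CPM in DMSO and 19.1, 20.6 and 31.2 CPM in iBET, so mouse C was highest in all 4 groups. Taken within each mouse, the log2 difference for iBET lay between -2.99 and -2.69 in Ova and between -2.87 and -2.75 in IC. Cx3cr1 fell with both stimuli, with a log2 fold change of -2.85 in Ova (SE 0.31, adjusted p = 5.72e-05) beside -2.83 with IC (SE 0.31, adjusted p = 5.15e-05). The annotated span of the gene includes several others, of which Gm33858 shares 78 exonic bases on the opposite strand and Wdr48 shares 0. Wdr48 held 58.3 ± 3.39 CPM in DMSO Ova and 60.6 ± 1.99 CPM in iBET Ova (log2 fold change 0.05, adjusted p = 0.765).

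Cxcr4 (ENSMUSG00000045382.6, chr1:128588199-128592293, minus strand), the CXCL12 receptor that holds leukocytes in bone marrow, changed less. It measured 42.6, 57.0 and 37.1 CPM in DMSO Ova and 25.3, 22.2 and 10.8 CPM in iBET Ova. With IC it measured 18.1, 26.0 and 19.8 CPM in DMSO and 12.6, 11.1 and 8.03 CPM in iBET. The groups did not overlap, although the gap between them was narrow in IC. Cxcr4 fell by 1.23 on the log2 scale in Ova (SE 0.29, adjusted p = 0.00759) and by 0.99 in IC (SE 0.30, adjusted p = 0.0223). The IC call was lost without mouse B's DMSO IC library (-0.82, adjusted p = 0.0752), mouse B's iBET IC library (-1.02, adjusted p = 0.0563) or that of mouse C (-0.83, adjusted p = 0.0813). It was also lost without mouse A (adjusted p = 0.0700) or mouse B (adjusted p = 0.182), and the Ova call was lost without mouse B (-1.12, adjusted p = 0.112).

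Of the purinergic receptors, only P2ry6 passed the test. P2ry6 (ENSMUSG00000048779.5, chr7:100937630-100974649, minus strand), the UDP receptor, measured 96.6, 104 and 94.8 CPM in DMSO Ova and 38.9, 33.7 and 29.7 CPM in iBET Ova. With IC it measured 119.5, 113 and 107 CPM in DMSO and 40.7, 36.0 and 26.2 CPM in iBET, again without overlap. P2ry6 fell by 1.53 on the log2 scale in Ova (SE 0.15, adjusted p = 1.59e-05) and by 1.71 in IC (SE 0.15, adjusted p = 5.25e-06).

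P2ry12 (ENSMUSG00000036353.13, chr3:59216272-59262871, minus strand), the ADP receptor known from microglia and platelets, was near the limit of detection with 2 to 21 counts per library. It measured 1.03, 1.38 and 1.74 CPM in DMSO Ova and 1.31, 0.662 and 1.58 CPM in iBET Ova. With IC it measured 0.842, 1.32 and 1.24 CPM in DMSO and 1.07, 0.388 and 0.959 CPM in iBET. The groups overlapped, and the log2 fold change was -0.32 (95% interval -1.24 to 0.60, adjusted p = 0.607) in Ova and -0.43 (-1.37 to 0.51, adjusted p = 0.468) in IC. The fitted values of P2ry6 (-1.53 and -1.71) would lie outside these intervals. The Ova interval of P2ry6 itself (-1.85 to -1.20) overlaps that of P2ry12, and the difference between these genes was not tested. The P2ry12 value in Ova was -0.43 (adjusted p = 0.519) without mouse A's DMSO Ova library. P2ry12 lies within Med12l on the opposite strand with 9 shared exonic bases, and Med12l had at most 2 counts in any library.

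Counted together, 5 of the 7 tested members fell in Ova and the same 5 fell in IC, namely Ccr1, Ccr2, Cx3cr1, Cxcr4 and P2ry6, where 14.2% and 15.8% of all 11468 genes tested were called lower. Those 5 and Gpr183 were lower in every iBET library than in every DMSO library with the same stimulus, as were 19.9% of all genes in Ova and 22.3% in IC. The members were chosen with earlier results of these data known, so these counts describe the list. Without mouse A's DMSO Ova library, the 5 falls in Ova ranged from -3.16 (Ccr2) to -1.32 (Cxcr4) and all 5 passed the test. The effect of iBET did not differ detectably between the stimuli for any member. The difference between the IC and Ova effects ran from -0.19 for P2ry6 to 0.61 for Ccr2 (SE 0.30, 95% interval -0.04 to 1.26, adjusted p = 1.00). In that test no gene of 11468 was called by edgeR (0%, with 292 at an unadjusted p under 0.05), and DESeq2 called 4.

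**Figure D2:**
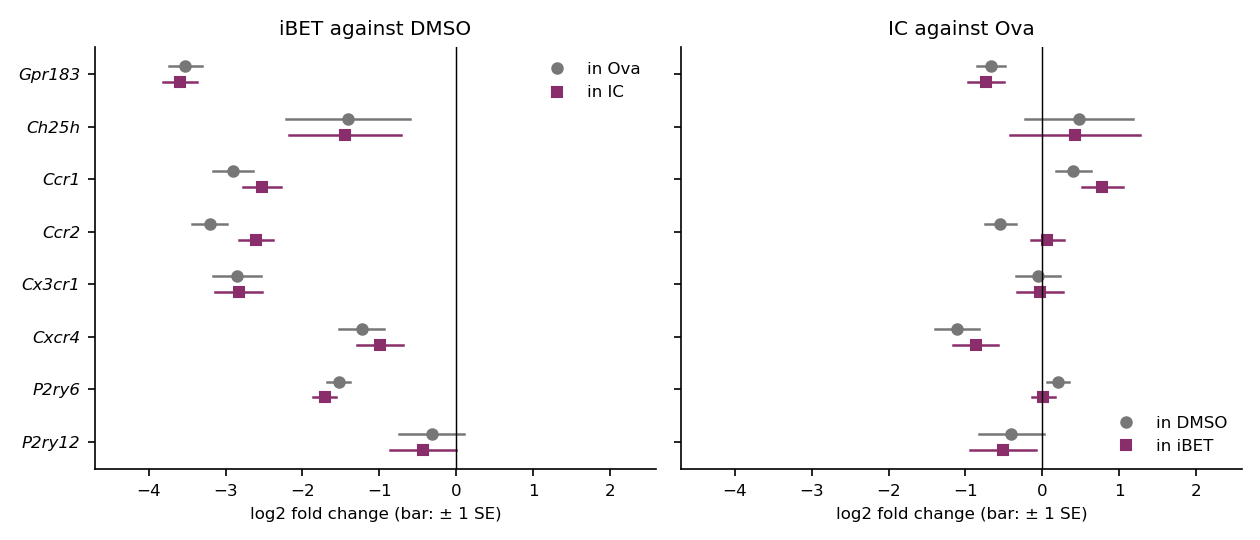
Fitted log2 fold change of each gene with a bar of 1 SE to each side, for iBET against DMSO at left and IC against Ova at right, all on the same scale. At left Gpr183, Ccr1, Ccr2 and Cx3cr1 lie between -3.59 and -2.52 and Cxcr4 and P2ry6 between -1.71 and -0.99, while at right every value lies between -1.11 and 0.78.

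Levels were then compared between genes as CPM per kb of annotated exon, which depends on the isoforms in the annotation. In DMSO Ova the order of the mean length-scaled level was Cx3cr1 (38.3), P2ry6 (34.0), Ccr2 (31.7), Cxcr4 (25.2), Gpr183 (22.0), Ccr1 (10.6), Ch25h (1.51) and P2ry12 (0.543 CPM per kb). From Cx3cr1 down to Gpr183, each neighbour in that order overlapped the next over 3 libraries, and so did Ch25h and P2ry12. In iBET Ova the order became P2ry6 (11.8), Cxcr4 (10.8), Cx3cr1 (5.34), Ccr2 (3.40), Gpr183 (1.90), Ccr1 (1.44), Ch25h (0.686) and P2ry12 (0.465). P2ry6, Cxcr4 and Cx3cr1 each overlapped the next gene in that order, and Gpr183 overlapped neither Ccr2 above it nor Ccr1 below it. In DMSO IC, Gpr183 (13.8 CPM per kb) lay between Ccr1 (14.4) and Cxcr4 (11.8) and overlapped both. In iBET IC, Gpr183 reached 1.14 ± 0.354 CPM per kb and overlapped Ch25h at 1.01 ± 0.648.

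**Figure D3:**
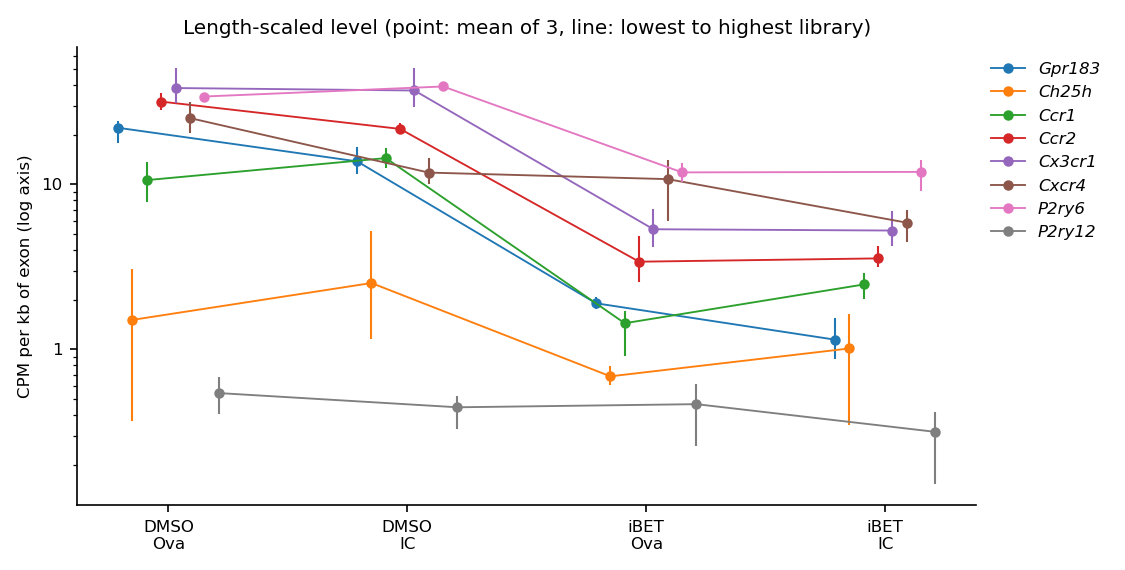
Length-scaled level of the 8 genes in the 4 groups, in CPM per kb of exon on a log axis, with the mean of 3 libraries as a point and the lowest to highest library as a vertical line. The means of Ccr2 and Cx3cr1 lie above that of Cxcr4 in both DMSO groups and below it in both iBET groups, and P2ry12 has the lowest mean in all 4 groups.

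The 250 bases before the RefSeq start site were read for the 7 members with an entry in the RefSeq promoter table (GRCm38.p6), all but P2ry6. They are shown for Gpr183 and Ccr1, which were both more than 5 times lower with iBET, for Cxcr4, which changed less, and for Ch25h, the ligand enzyme. The stretches read 5′ to 3′ toward the start site, and capitals mark matches to the motifs searched. They come from chr14:121965194-121965443, chr9:123968693-123968942, chr1:128592300-128592549 and chr19:34475149-34475398, all on the minus strand, in the order Gpr183, Ccr1, Cxcr4 and Ch25h.
Gpr183: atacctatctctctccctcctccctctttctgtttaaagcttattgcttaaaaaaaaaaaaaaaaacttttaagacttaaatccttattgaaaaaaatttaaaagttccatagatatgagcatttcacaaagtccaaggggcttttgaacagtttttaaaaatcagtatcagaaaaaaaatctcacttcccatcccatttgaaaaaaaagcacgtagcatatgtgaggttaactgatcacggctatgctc
Ccr1: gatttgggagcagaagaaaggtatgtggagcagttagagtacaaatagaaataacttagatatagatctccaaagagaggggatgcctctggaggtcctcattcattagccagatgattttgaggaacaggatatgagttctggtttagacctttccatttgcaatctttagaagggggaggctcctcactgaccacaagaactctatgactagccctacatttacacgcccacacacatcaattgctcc
Cxcr4: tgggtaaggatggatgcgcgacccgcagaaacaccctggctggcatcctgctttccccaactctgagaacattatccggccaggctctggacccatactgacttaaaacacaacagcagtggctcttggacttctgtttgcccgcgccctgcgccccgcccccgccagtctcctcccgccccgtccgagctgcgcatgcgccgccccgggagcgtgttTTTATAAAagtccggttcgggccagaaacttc
Ch25h: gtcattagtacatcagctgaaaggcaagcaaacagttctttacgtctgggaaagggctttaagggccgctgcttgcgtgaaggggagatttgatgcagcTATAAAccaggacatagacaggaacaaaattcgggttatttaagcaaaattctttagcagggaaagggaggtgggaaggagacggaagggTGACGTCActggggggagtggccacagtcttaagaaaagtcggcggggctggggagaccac
The motifs, searched on both strands in the same 250 bases of 32851 promoters, were TATAAA (the TATA box, in 12.4% of them), TGACTCA (AP-1, 4.46%), TGACGTCA (cAMP response element, 1.55%), CACGTG (E-box, 6.02%), TTTC and TTTC 2 bases apart (interferon-stimulated response element, 2.98%), GAGGAAG (PU.1 core, 10.6%) and GGG and TTTCC 2 bases apart (NF-kB, 1.41%). None of these motifs were in the Gpr183 or Ccr1 stretches. Nor were they in those of Ccr2 and Cx3cr1, of which 233 and all 250 bases lie in annotated exons of the gene itself. Cxcr4 held TATAAA at position -30 from the start site, overlapped by the same motif on the other strand at -32. Ch25h held TATAAA at -151 and TGACGTCA at -61, and P2ry12 held CACGTG at -228. The GC content was 32.0% for Gpr183, 43.6% for Ccr1, 50.4% for Ch25h and 61.2% for Cxcr4, beside a median of 52.4% over all promoters. Of the stretches shown, 16 bases of Ch25h and 2 of Gpr183 fall in annotated exon.

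The design also asks whether IC, which cross-link Fc gamma receptors, changed these genes. The IC contrasts use the same libraries as the iBET contrasts, so their values are not independent. In DMSO, Gpr183 was lower with IC in 3 of 3 mice, with log2 CPM differences of -0.52, -0.88 and -0.63 in mice A, B and C, and with iBET it was again lower in 3 of 3 mice, at -0.76, -0.40 and -1.05. The fitted log2 fold change was -0.67 (SE 0.19, adjusted p = 0.130) in DMSO and -0.73 (SE 0.23, adjusted p = 0.375) in iBET. The groups did not overlap in either arm, yet neither value passed the test, which had no term for the mouse. Blocked by mouse, Gpr183 passed in DMSO (adjusted p = 0.0319), as it did with DESeq2 (0.0476) and with 1 surrogate variable (0.0274), and in iBET it passed in no setting.

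Cxcr4 was also lower with IC in every mouse, with log2 differences of -1.23, -1.13 and -0.90 in DMSO and -0.996, -0.98 and -0.42 in iBET. The fitted values were -1.11 (SE 0.29, adjusted p = 0.108) and -0.87 (SE 0.30, adjusted p = 0.444). The DMSO groups did not overlap, and the iBET groups did. In DMSO, Cxcr4 passed with the mouse as a block (adjusted p = 0.0119), with DESeq2 (0.0149) and without mouse C's iBET Ova library (0.0342). Ccr2 had a DMSO value of -0.55 (SE 0.21, adjusted p = 0.295), and its groups did not overlap. It passed with the mouse as a block (adjusted p = 0.0388) and without mouse A (0.0228), and in iBET its value was 0.06 (SE 0.22).

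Ccr1 ran the other way. In both arms all 3 mice had more Ccr1 with IC, by 0.28 to 0.85 in log2 CPM in DMSO and by 0.51 to 1.09 in iBET, where the groups did not overlap. The fitted values were 0.40 (SE 0.23, adjusted p = 0.561) and 0.78 (SE 0.26, adjusted p = 0.434). P2ry6 measured 98.3 ± 4.67 CPM in DMSO Ova and 113 ± 6.28 CPM in DMSO IC without overlap, at a log2 fold change of 0.20 (SE 0.15, adjusted p = 0.701). Cx3cr1 gave -0.06 (SE 0.28) in DMSO and -0.03 (SE 0.30) in iBET. Ch25h gave 0.48 (SE 0.70) in DMSO, which turned to -0.62 without mouse C's DMSO IC library. Leaving out mouse A's DMSO Ova library moved the DMSO values to 0.24 for Ccr1, -0.20 for Cx3cr1 and 0.27 for Ch25h. In the same fit Gpr183 was at -0.63 (adjusted p = 0.182), Cxcr4 at -1.17 (0.155), Ccr2 at -0.48 (0.409), P2ry6 at 0.17 and P2ry12 at -0.49, and no member passed.

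No member was called in either arm alone, where 1.22% of all genes were called in DMSO and 0.349% in iBET, and 3 of the 8 members in DMSO (Gpr183, Ccr2 and Cxcr4) and 3 in iBET (Gpr183, Ccr1 and Cxcr4) had an unadjusted p under 0.05 (11.7% and 7.5% of all genes). With the mouse as a block 3 members passed in DMSO against 0 without it, where the count of all genes called was 315 against 140. In iBET the block gave 85 genes against 40, with 0 members. Lower without overlap were 3 members in DMSO and 1 in iBET, beside 7.47% and 9.34% of all genes, and higher without overlap was 1 in each arm, beside 7.8% and 9.53%.

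Gpr183, Cxcr4 and Ccr1 each ran the same way in both arms. The IC response was therefore also averaged over DMSO and iBET in the same fit, a contrast chosen after seeing the data. Its adjusted p-values rest on the values that led to this choice, so they are given as a description. Gpr183 fell by 0.70 on the log2 scale (SE 0.15, adjusted p = 0.0249), a 38.4% lower level, and Cxcr4 fell by 0.99 (SE 0.21, adjusted p = 0.0255), a 49.6% lower level. Both passed where 1.24% of all genes were called lower. Each was lower in 3 of 3 mice in both arms. The call of Gpr183 was lost without the mouse B libraries of DMSO Ova, iBET Ova or DMSO IC, without mouse C of iBET Ova, DMSO IC or iBET IC, or without mouse A of iBET IC (adjusted p = 0.0559 to 0.0876), and without mouse B (0.353) or mouse C (0.170) as a whole. The call of Cxcr4 was lost without the mouse B libraries of DMSO Ova, iBET Ova or iBET IC, without mouse A of iBET Ova or DMSO IC, or without mouse C of DMSO IC or iBET IC (0.0515 to 0.0769), and without mouse A (0.139) or mouse B (0.506). The 2 calls held without mouse A's DMSO Ova library (0.0311 and 0.0417). Ccr1 was at 0.59 (SE 0.17, adjusted p = 0.0977), and passed with the mouse as a block (0.0276) and with DESeq2 (0.0357). P2ry12, also lower in 3 of 3 mice in both arms, was at -0.46 (SE 0.30, adjusted p = 0.526).

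**Figure D4:**
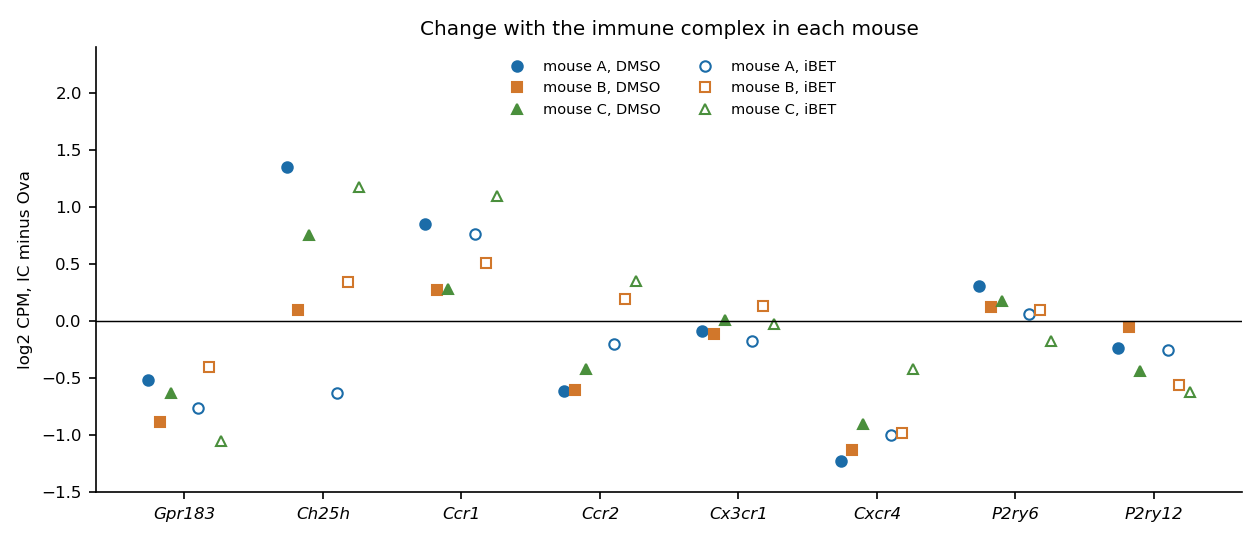
Difference in log2 CPM between IC and Ova within each mouse, with filled symbols for DMSO and open symbols for iBET. All 6 points lie below 0 for Gpr183, Cxcr4 and P2ry12 and above 0 for Ccr1, while Ccr2 is below 0 in the 3 DMSO points (-0.61 to -0.42) and on both sides of 0 with iBET (-0.20 to 0.35).

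Related genes were then counted by role, from lists written with earlier results of these data known. Of 66 tested, 6 rose and 24 fell with iBET in Ova, and 11 rose and 22 fell in IC, where of all genes tested 17.1% and 19% were called higher and 14.2% and 15.8% lower. With the mouse as a block, 11 rose and 25 fell in Ova, and 14 rose and 26 fell in IC. Without mouse B the counts were 3 and 13 in Ova and 5 and 10 in IC, and without mouse A's DMSO Ova library they were 5 and 23 in Ova.

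Among the ligands of the member chemokine receptors 10 of 13 were tested (medians 0.32 in Ova and 0.21 in IC). In Ova 1 rose and in IC 3, beside 17.1% and 19% of all genes tested, and none fell, beside 14.2% and 15.8%. Ccl7, a CCR2 ligand, rose in both, with log2 fold changes of 1.48 (SE 0.32, adjusted p = 0.00489) and 1.34 (SE 0.30, adjusted p = 0.00521), so this ligand and its receptor moved in opposite directions. A block for the mouse gave 4 ligands that rose in each contrast, and without mouse A both Ccl7 calls were lost (adjusted p = 0.115 and 0.135).

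Receptors for other chemoattractants mostly fell. Of 24 listed, 11 were tested (medians -1.90 in Ova and -1.46 in IC). In each iBET contrast 10 fell, beside 14.2% and 15.8% of all genes, and 1 rose, beside 17.1% and 19%. Without mouse B, 7 fell in Ova and 5 in IC. Gpr84, a receptor for medium-chain fatty acids, fell by 2.94 in Ova (SE 0.48, adjusted p = 0.000753) and by 3.49 in IC (SE 0.40, adjusted p = 6.16e-05). Gpr35 fell, at -2.73 (SE 0.33) and -3.09 (SE 0.32). C5ar1, the receptor for the complement peptide C5a, rose, with a log2 fold change of 0.49 in Ova (SE 0.14, adjusted p = 0.0173) beside 0.66 with IC (SE 0.14, adjusted p = 0.00255). Its Ova call was lost without the mouse A library of DMSO Ova or the mouse A or B library of iBET Ova (adjusted p up to 0.0984), without all libraries of mouse A (0.0828) or mouse B (0.134), and with the compared groups alone (0.0587). In DMSO, Gpr84 rose with IC by 1.81 (SE 0.38, adjusted p = 0.0401) and S1pr1, a sphingosine-1-phosphate receptor, fell by 0.81 (SE 0.14, adjusted p = 0.0182), and no other gene of the 66 passed in that contrast (0.732% of all genes were called higher and 0.488% lower) or in IC against Ova with iBET. With the mouse as a block, 5 rose and 1 fell with IC in DMSO and 4 rose in iBET. The Gpr84 call was lost in 9 of 12 fits that left out 1 library (adjusted p up to 0.196) and held without the mouse A or C library of iBET Ova or mouse A's DMSO IC library. It was also lost without mouse B (0.829) or mouse C (0.217), with the compared groups alone (0.207), with limma (0.0743) and with no filter (0.0502). The S1pr1 call was lost without the mouse B or C library of DMSO Ova or mouse C's DMSO IC library (adjusted p up to 0.118), without mouse B (0.589) or mouse C (0.271), and with the compared groups alone (0.137).

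Of the other P2Y receptors 4 of 7 were tested. In Ova 2 rose and 2 fell, beside 17.1% and 14.2% of all genes. In IC 2 rose and 1 fell (2 fell with the mouse as a block), beside 19% and 15.8%. P2ry1, an ADP receptor, rose from 1.94 to 7.44 CPM in Ova (log2 fold change 1.73, SE 0.29, adjusted p = 0.000689) and by 1.77 in IC, and its Ova call was lost without mouse B (adjusted p = 0.0577). P2ry2, an ATP and UTP receptor, rose by 0.53 in Ova (adjusted p = 0.0334) and by 0.67 in IC (adjusted p = 0.00656). The gene listed as A630033H20Rik (P2ry10b) fell, at -1.99 in Ova and -1.78 in IC. The Ova call of P2ry2 was lost without the mouse B or C library of DMSO Ova or mouse A's iBET Ova library (adjusted p up to 0.153), without mouse A (0.121), B (0.146) or C (0.128), and with limma or the compared groups alone (0.0594 and 0.0981). Its IC call was lost without mouse B (0.0940). Of the genes for nucleotide release and breakdown 8 of 10 were tested. In each contrast 1 rose and 2 fell, beside the same shares of all genes. Entpd5 rose by 1.09 and 1.17, Nt5e (CD73, which makes adenosine from AMP) fell by 2.77 and 2.64, and Entpd1 (CD39, which breaks down ATP and ADP) fell by 1.12 and 0.85. The IC call of Entpd1 was lost without the mouse A or B library of DMSO IC or the mouse B or C library of iBET IC (adjusted p up to 0.103), with no filter (0.0501), and without mouse B (0.315), which also ended its Ova call (0.141).

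Of 26 genes of Gi signalling to motility, which acts downstream of Gi-coupled receptors such as GPR183, 25 were tested. With iBET, 1 rose and 8 fell in Ova, beside 17.1% and 14.2% of all genes. In IC 4 rose and 7 fell, beside 19% and 15.8%. Their median log2 fold change was -0.03 in Ova and 0.03 in IC, beside 0.02 and -0.0037 for all genes. Gnb4, a G protein beta subunit, fell by 1.33 (adjusted p = 0.00026) and 1.11 (adjusted p = 0.000641), and Adrbk2 (GRK3, a kinase that turns receptors off) fell by 1.25 (adjusted p = 0.0307) and 1.09 (adjusted p = 0.0247). Plcb3 rose by 0.72 and 0.48, and its IC call was lost without mouse B (0.34, adjusted p = 0.205). Gnai2, the main Gi alpha subunit of leukocytes, measured 888 CPM in DMSO Ova and 1069 CPM in iBET Ova (log2 fold change 0.27, adjusted p = 0.0638). A block for the mouse gave 3 that rose in Ova. The Adrbk2 calls were lost without the mouse B or C library of DMSO Ova or the mouse A or C library of iBET Ova (adjusted p up to 0.107), without the mouse A or B library of DMSO IC or the mouse A or C library of iBET IC (up to 0.0928), and with limma (0.0711 and 0.0615). Without a whole mouse, its Ova call was lost for mouse B (0.107) and mouse C (0.180), and its IC call for mouse A (0.122) and mouse B (0.0888).

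**Figure D5:**
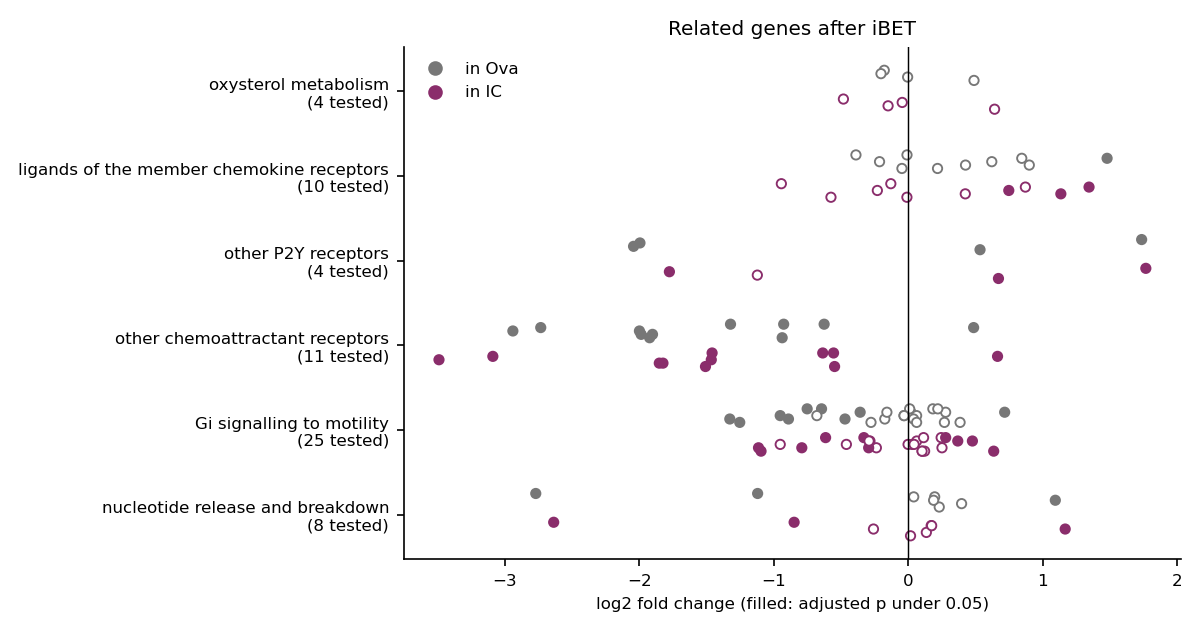
Log2 fold change of each tested gene of 6 related lists for iBET against DMSO in Ova and in IC, grouped by role, filled where the adjusted p was under 0.05. The other chemoattractant receptors lie to the left of 0 except C5ar1 (0.49 and 0.66) and the Gi signalling genes lie on both sides of 0 with medians of -0.03 and 0.03.

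The genes whose pattern over the 12 libraries was most like that of Gpr183 included Csrp2bp (Pearson's r = 0.993), Gtf2i (0.992), Zmynd8 (0.987) and Synj2 (0.986), of 9427 genes with a mean of at least 50 counts. The coefficient is over log2 CPM, and the 12 points share the 4 groups, so it includes the difference between DMSO and iBET. It does not weigh the size of a fall. Zmynd8, for instance, held 114 ± 7.21 CPM in DMSO Ova and 34.1 ± 0.899 CPM in iBET Ova. Csrp2bp held 77.0 ± 4.65 CPM and 38.1 ± 1.17 CPM in the same groups, and both changes were smaller than that of Gpr183. Of the other members, Ccr2 ranked 76 (r = 0.964), P2ry6 149, Cx3cr1 239, Ccr1 568 and Cxcr4 1034. After the group means were removed, the coefficient with Gpr183 was 0.80 for Csrp2bp, 0.54 for Gtf2i, 0.51 for Synj2 and 0.31 for Zmynd8. Among the members it was 0.40 for P2ry6, 0.19 for Cxcr4, 0.13 for Ccr1 and -0.05 for Ccr2. It was -0.67 for Cx3cr1, the gene that was highest in mouse C.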

How the data were processed

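RNA of BMDM libraries made with a SMARTer pico total RNA kit was sequenced, and per the labels and the study's methods the authors trimmed the first 3 bases of read 1, aligned the reads to mm10 with HISAT2 and counted genes with featureCounts. The authors deposited raw counts per gene and a normalized signal, which are the counts divided by DESeq2 size factors (recomputed here, with a largest relative gap of 4.88e-15). The use of strand in counting is not given in the sources used here.

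From the counts, genes were kept with edgeR's filterByExpr (minimum count 10), scaled by TMM and tested with edgeR's quasi-likelihood test (edgeR 4.0.16, R 4.3.3) over all 4 groups, with Benjamini-Hochberg adjustment over all 11468 genes tested and a threshold of 0.05. CPM use the TMM-scaled library sizes, and log2 CPM a prior count of 2. Of 24421 symbols 24045 matched GENCODE (GRCm38), from which lengths and positions were taken. The scripts were tested on simulated data. The 8 members and all gene lists were chosen with earlier results of these data known. The text names the members, genes overlapping them, up to 2 genes a list with the largest mean rise and 2 with the largest mean fall among those called alike in both iBET contrasts, list genes called for IC, and 4 of the 5 genes most like Gpr183, while 1 of these and 1 list counted among the related genes are not reported here. Hsd3b7, Cyp7b1 and Gnai2 fall outside this rule and were chosen after their values were seen.

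Replicate numbers mark mice. Of 18 pairs of libraries from the same mouse, the correlation of deviations from group means ran from -0.072 to 0.54 (median 0.26). Over 36 pairs from different mice the median was -0.13, and the labels' shared mouse is taken as the pairing. The main fit had a term for each group and none for the mouse, so its p-values do not use this pairing. Alternatives were the mouse as a block, DESeq2 1.42.0, limma 3.58.1 on the normalized table (pseudocount 1), sva 3.50.0 with 1 surrogate variable, other filters and scaling, the compared groups alone, and each library or mouse left out. With 3 libraries a group, 1 per mouse, the p-values of the main fit rest on the spread between libraries. Mouse and library preparation cannot be told apart in that spread. The p-values with the mouse as a block leave out the difference between mice. Depth of 7549849 to 17387639 counts limits Ch25h and P2ry12, which had as few as 1 and 2 counts.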

Additional observations from a re-analysis of the deposited data

How the results depend on the processing

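The direction and call of the iBET falls of Ccr1, Ccr2, Cx3cr1 and P2ry6 held in every alternative run (highest adjusted p 0.0115). Genes called for IC against Ova in DMSO numbered 140, and 268 with DESeq2, 315 with the mouse as a replicate block, 435 with 1 surrogate variable and 5 with the compared groups alone. With iBET they numbered 40, and 113, 85, 115 and 99 in the same order. For the mean of both arms they numbered 338, and 540, 658 and 841 with the first 3 of these, and the interaction gave 0, and 4 with DESeq2. Members called for IC in DMSO numbered 0, and 2 with DESeq2, 3 with the block and 1 with the surrogate variable. The compared groups alone gave no value for the interaction or the mean of both arms. For the members, the block changed no other call than those given with the results.

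Leaving out 1 library or 1 mouse gave 0 to 159 genes and 0 to 1 members for IC in DMSO, 0 to 305 genes for IC in iBET, 1310 to 3899 genes for iBET in Ova, 1769 to 4469 for iBET in IC and 0 to 1 for the interaction. Without mouse B these were 0, 0, 1310 and 1769 for the first 4. For the mean of both arms it gave 6 to 882 genes and 0 to 2 members. Fewer libraries were fitted in each, and the cause was not tested further. Signs turned, among values not called, for IC in DMSO in Ch25h (-0.62 to 1.41) and Cx3cr1 (-0.35 to 0.20), and for IC in iBET in Ch25h (-0.12 to 0.96), P2ry6 (-0.13 to 0.17), Cx3cr1 (-0.28 to 0.21) and Ccr2 (-0.10 to 0.42). They also turned for the interaction in Cxcr4 (-0.043 to 0.48), Gpr183 (-0.37 to 0.11), Ch25h (-0.97 to 1.06), P2ry12 (-0.47 to 0.19) and Cx3cr1 (-0.23 to 0.32), and for the mean of both arms in Ch25h (-0.094 to 0.92) and Cx3cr1 (-0.19 to 0.081).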
